A study of Arabidopsis thaliana with 9 samples.

Results

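The genes described here are 42 members of the Aux/IAA and ARF families of *Arabidopsis thaliana*, the repressors and the transcription factors at the end of the auxin signalling pathway. They were chosen by locus, as 28 Aux/IAA genes, without *IAA12*, and 14 ARF genes, without *ARF5*, out of 33603 loci in the deposited values. All 42 members were in the files, and 32 of them, 18 Aux/IAA and 14 ARF, had enough reads to be tested. RNA came from dissected early heart stage embryos, in which the cotyledons begin to grow out, and was sequenced in 9 libraries, 3 for each of 3 genotypes. Col *FRI* carries an active allele of *FRIGIDA* in the Columbia background, and its parent plants were vernalized as seedlings for 6 weeks. 35S::*FCA* is transgenic Col-0 that overexpresses *FCA* from the 35S promoter of cauliflower mosaic virus, which is active in most plant tissues. For its parents no weeks of vernalization are given. Col-0 is the Columbia wild type, which carries a non-functional *FRI* allele, and none are given for its parents either. The active *FRI* allele and the cold treatment of the parents thus cannot be told apart in these libraries. Each library pooled 20 embryos and was prepared by Smart-seq2, a method for little input RNA that amplifies whole cDNA.

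Auxin acts through a short chain of proteins. ARF proteins bind auxin response elements in promoters, and Aux/IAA proteins bind to ARFs and recruit the corepressor TOPLESS, which keeps the target genes silent. When auxin binds between a TIR1/AFB receptor and the degron of an Aux/IAA protein, the repressor is ubiquitinated by an SCF complex and degraded, and the ARF is set free. Class A ARFs (here *ARF6*, *ARF7*, *ARF8* and *ARF19*) are mostly activators of transcription, while class B and class C ARFs are mostly repressors. Many Aux/IAA genes are themselves targets of ARFs, so that their transcripts are used as readouts of auxin response. In the embryo, this pathway sets the root pole, the vascular tissue and the cotyledons.

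The degron decides which Aux/IAA proteins auxin can remove, and its core is the residues Gly-Trp-Pro-Pro. In the RefSeq annotation of TAIR10.1, codons for this core were found in 22 of 28 Aux/IAA genes and in the other 6, *IAA20*, *IAA30*, *IAA31*, *IAA32*, *IAA33* and *IAA34*, they were not. The coding sequences around the core are shown for the 4 Aux/IAA genes that fell in Col *FRI* embryos and for *IAA8*, the most abundant member, with the 4 core codons in capitals and 3 codons on either side. All 5 encode the core. *IAA8* and *IAA9* do so with identical codons, and the other 3 differ from them and from each other at synonymous bases.
*IAA17*: caagttgtgGGATGGCCACCGgtgagatca
*IAA26*: ccagtggtgGGTTGGCCTCCGgttcgttcg
*IAA9*: caaattgtcGGTTGGCCTCCAgtgagatcc
*IAA4*: cagattgttGGATGGCCACCAgttagatct
*IAA8*: caggttgttGGTTGGCCTCCAatcagatca

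Several ARFs are controlled by small RNAs. The mature sequences of miR160 and miR167, again from RefSeq, are shown with the seed, bases 2 to 8, in capitals, because the ARFs they target form groups of their own below. The 5p sequences of miR160a, miR160b and miR160c are identical, as are those of miR167a and miR167b. miR167d shares the seed of miR167a, and miR167c has a different seed.
miR160a-5p: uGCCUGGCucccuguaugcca
miR167a-5p and miR167b: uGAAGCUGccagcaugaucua
A search of the spliced transcripts of all 42 members, with at most 4 mismatches and with G:U pairs counted as mismatches, found sites for miR160 in *ARF10*, *ARF16* and *ARF17* and for miR167 in *ARF6* and *ARF8*, all of them in coding exons. Capitals mark the mismatches, G:U pairs included.
*ARF10* site, chr2:12115741-12115761, plus strand, 2 mismatches: AggAauacagggagccaggca
*ARF16* site, chr4:14704141-14704161, minus strand, 3 mismatches: GggUUuacagggagccaggca
*ARF17* site, chr1:29274189-29274209, plus strand, 1 mismatch: uggcauGcagggagccaggca
*ARF6* site, chr1:10686478-10686498, minus strand, 4 mismatches: GagaucaGgcuggcagcuuGU
*ARF8* site, chr5:14633841-14633861, plus strand, 3 mismatches: uagaucaGgcuggcagcuuGU

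Library depth was 15166826 to 18768286 estimated counts in Col *FRI*, 17996274 to 25847613 in 35S::*FCA*, against 20372634 to 24659741 in Col-0. The checks of the genotypes held, with log2 fold changes of 2.59 for *FLC* (edgeR adjusted p = 1.92e-07) and 1.11 for *FRI* (edgeR adjusted p = 0.00981) in Col *FRI* against Col-0, and of 0.76 for *FCA* (edgeR adjusted p = 0.0320) in 35S::*FCA* against Col-0. The samples are labelled as biological replicates. Squared differences in counts between libraries were compared with those from sampling noise. Libraries were scaled by total counts only, so that differences in their composition enter the values. The median was 1.15 to 1.63 times the noise between Col *FRI* libraries and 3.05 to 15.2 times between 35S::*FCA* libraries. Between Col-0 libraries it was 7.26 times for replicates 1 and 2, and 15.1 and 21.9 times for the pairs with replicate 3. Tests of Col *FRI* thus rest on libraries that vary little, and p-values measure only the spread between these samples. The values cannot tell whether separate preparations gave the 3 libraries of Col *FRI*. If they did not, n for Col *FRI* is 1, and the errors and p-values given with n = 3 are too small. Col-0 replicate 3 stood apart, with 22.8% of TPM in organelle transcripts, against 11.9 and 13.6% in the other Col-0 libraries. Embryo marker genes summed to 999 to 1017 TPM in Col *FRI*, 1213 to 1581 TPM in 35S::*FCA*, against 1044 to 1357 TPM in Col-0, with none of the 7 at the floor. Most of each sum was 1 gene, *PDF1*, with means of 783 TPM in Col *FRI*, 1143 TPM in 35S::*FCA* and 964 TPM in Col-0. Means of *LEC1* were 158, 192 and 154 TPM in the same order. Seed coat markers (7 genes) summed to 7.73 to 10.9 TPM over all libraries and endosperm markers to 1.47 to 4.66 TPM, with 2 of 7, *IKU2* and *MINI3*, at or under 3 counts in every library. In whole embryos, fewer cells of a type and less RNA per cell cannot be told apart.

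Levels are given as TPM, transcript abundances scaled to the same total in every library, which take transcript length into account and so can be compared between genes. *IAA8* (AT2G22670, chr2:9636346-9638761, plus strand), a long Aux/IAA protein of the same subgroup as *IAA9* and *IAA27*, was at 231, 223 and 226 TPM in Col *FRI*, 201, 293 and 260.0 TPM in 35S::*FCA* and 276, 285 and 220.4 TPM in Col-0. It made up 53.8 to 54.8% of all Aux/IAA TPM in Col *FRI*, 49.9 to 54.5% in 35S::*FCA*, against 49.3 to 53.1% in Col-0. *IAA9* (AT5G65670, chr5:26253408-26256544, plus strand), known in tomato for its role in fruit set and leaf shape, was next, and both together made up 63.1 to 71.5% of the family in every library. In Col-0 the lowest *IAA8* library was above the highest *IAA9* library, whereas *IAA9* and the next member, *IAA30*, overlapped.

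*IAA30* (AT3G62100, chr3:22995686-22996809, plus strand), a target of the embryo regulator LEC2, was at 28.003, 27.9 and 25.1 TPM in Col *FRI*, 35.2, 26.7 and 29.5 TPM in 35S::*FCA* and 56.6, 71.8 and 26.03 TPM in Col-0. Col-0 replicates 1 and 2 were higher than all other libraries, and Col-0 replicate 3 was among the lowest. The next member by mean level in Col-0, *IAA13*, the closest relative of the embryo root regulator *IAA12*, was at 15.6, 15.2 and 14.8 TPM in Col *FRI*, 15.04, 19.7 and 16.7 TPM in 35S::*FCA* and 19.3, 19.0 and 13.2 TPM in Col-0. *IAA20* was at 19.6, 22.5 and 18.8 TPM in Col *FRI*, 13.7, 16.8 and 14.8 TPM in 35S::*FCA* and 19.7, 20.6 and 11.1 TPM in Col-0. Col-0 libraries of *IAA13* and *IAA20* overlapped with each other, while *IAA30* was above *IAA13* in every Col-0 library. *IAA20* and *IAA30* together with the other 4 members without degron codons made up 12.3 to 13.5% of Aux/IAA TPM in Col *FRI*, 9.83 to 13.8% in 35S::*FCA*, against 11.4 to 16.9% in Col-0.

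By mean TPM in Col-0, 9 Aux/IAA members were above 10, 7 were between 1 and 10 and 12 were under 1. Of the 12, *IAA6* was at 0 estimated counts in all 9 libraries, and 9 more (*IAA3*, *IAA5*, *IAA7*, *IAA14*, *IAA15*, *IAA16*, *IAA28*, *IAA29* and *IAA34*) had at most 21 counts in any library and were not tested. Most steps in the order of Aux/IAA levels were within the spread between libraries, since 23 of 27 neighbours overlapped.

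ARF levels spanned a narrower range. *ARF1* (AT1G59750, chr1:21979289-21984433, plus strand), a class B repressor, was at 17.7, 19.0 and 18.1 TPM in Col *FRI*, 19.0, 24.6 and 23.9 TPM in 35S::*FCA* and 21.2, 21.3 and 18.0 TPM in Col-0. *ARF2* (AT5G62000), a class B repressor that limits seed and organ size, was at 14.8, 14.97 and 15.3 TPM in Col *FRI*, 13.98, 17.8 and 16.6 TPM in 35S::*FCA* and 18.1, 15.9 and 13.2 TPM in Col-0. *ARF3* (AT2G33860), the leaf and gynoecium polarity factor ETTIN, was at 12.3, 12.9 and 12.5 TPM in Col *FRI*, 16.7, 15.6 and 17.0 TPM in 35S::*FCA* and 12.1, 10.7 and 11.98 TPM in Col-0. *ARF1* and *ARF2* overlapped in Col-0, and *ARF3* was below both. Next came *ARF8*, an activator needed for flower maturation, at 8.91, 8.96 and 9.06 TPM in Col *FRI*, 9.39, 11.9 and 10.5 TPM in 35S::*FCA* and 8.52, 6.73 and 7.17 TPM in Col-0. *ARF18*, another class B member, was at 6.49, 5.90 and 6.22 TPM in Col *FRI*, 5.99, 7.22 and 5.56 TPM in 35S::*FCA* and 6.50, 7.26 and 4.73 TPM in Col-0. Both overlapped in Col-0. In all, 3 ARF members were above 10 TPM, 9 were between 1 and 10 and 2, *ARF11* and *ARF19*, were under 1.

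**Figure D1:**
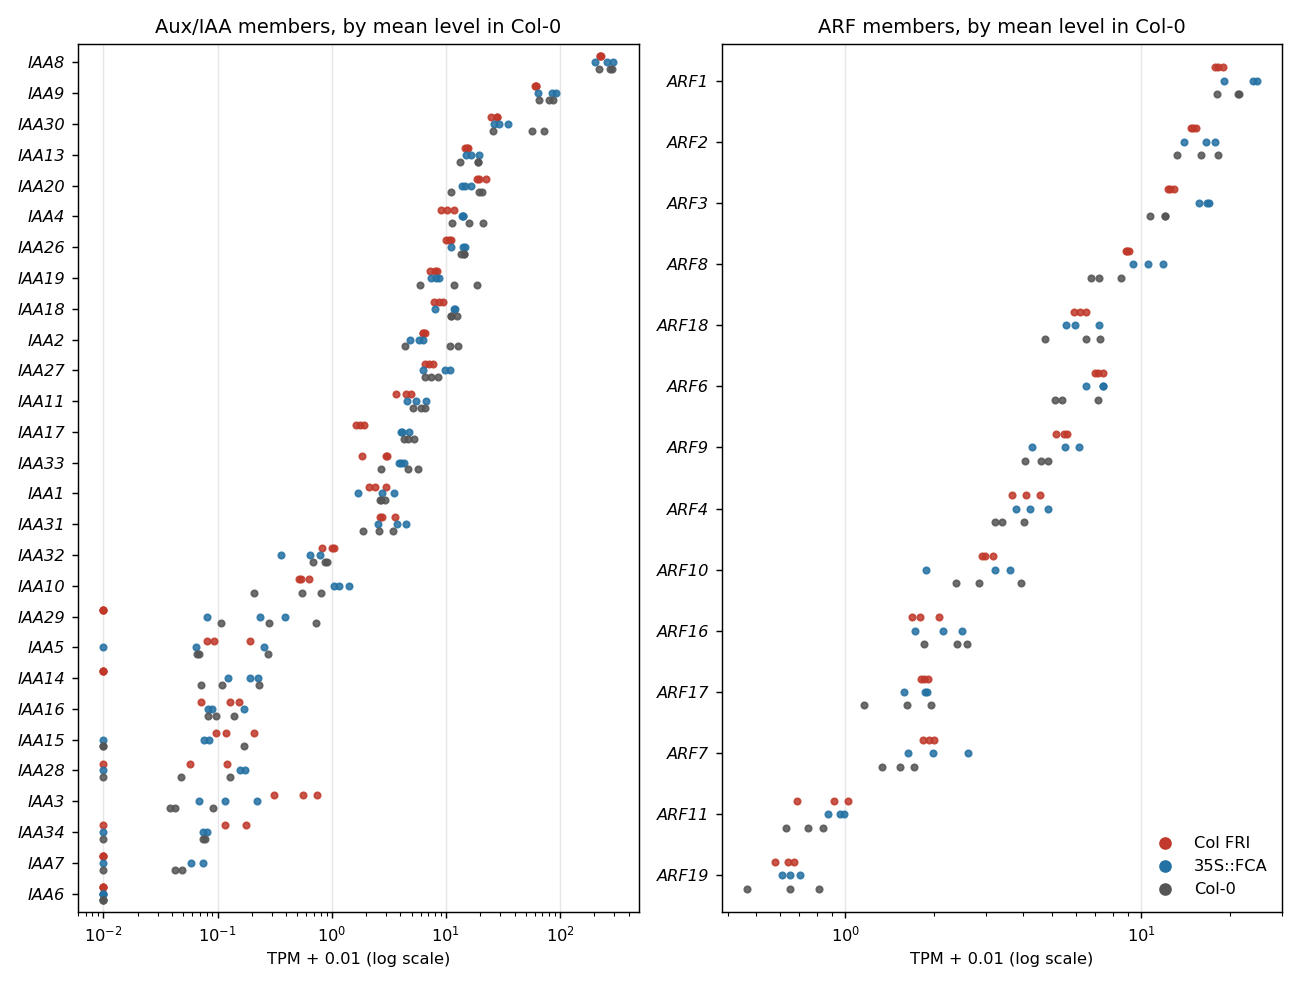
TPM + 0.01 on a log scale for all 42 members, with 1 point per library and colours for Col *FRI*, 35S::*FCA* and Col-0. *IAA8* stands above every other member in each genotype, ARF members lie within a narrower range than Aux/IAA members, and points at the left edge of the Aux/IAA panel are values of 0.

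To ask whether the active *FRI* background changed these genes, Col *FRI* was compared with Col-0 in edgeR's quasi-likelihood test over 18585 loci, and a gene was called at an adjusted p under 0.05. The values given beside the tests are CPM, counts scaled to a common library size by TMM. Of 18 Aux/IAA members tested 4 fell and 0 rose, and of 14 ARF members tested 1 rose and 0 fell. Of all loci tested, 7.22% were called lower and 6.04% higher, next to 12.5% lower and 3.12% higher among the 32 members. The median log2 fold change was -0.32 over Aux/IAA members, of which 14 were negative, and 0.21 over ARF members, of which 11 were positive, beside -0.01 over all loci. Over the alternatives described below, the Aux/IAA median ran from -0.36 to -0.19, with -0.19 without Col-0 replicate 2. The ARF median ran from 0.11 to 0.28. At an unadjusted p under 0.05 there were 12 members (37.5%), next to 30.0% of all loci. With the stricter rule of an adjusted p under 0.001 and a fold above 2, by which 0.183% of loci were called, 0 members passed.

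*IAA17* (AT1G04250, chr1:1136078-1138663, plus strand), also known as AXR3 from mutants with stabilized protein and altered root growth, was at 2.35, 2.53 and 2.73 CPM in Col *FRI*, 7.34, 4.80 and 5.22 CPM in 35S::*FCA* and 5.98, 5.70 and 8.43 CPM in Col-0. All 3 Col *FRI* libraries were lower than every other library, and 35S::*FCA* and Col-0 overlapped. The log2 fold change in Col *FRI* against Col-0 was -1.39 ± 0.22 (SE, adjusted p = 0.00485 in edgeR), a 2.63-fold lower level. It was the largest of the 5 changes called.

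*IAA4* (AT5G43700, chr5:17550179-17551715, plus strand), a close relative of the root meristem regulator *IAA3*, was at 16.0, 14.03 and 18.3 CPM in Col *FRI*, 23.6, 17.7 and 19.4 CPM in 35S::*FCA* and 29.2, 23.1 and 19.6 CPM in Col-0. The 3 Col *FRI* libraries were below all Col-0 libraries, but the highest of them was close to the lowest of Col-0 and overlapped with 35S::*FCA*. Its log2 fold change was -0.58 ± 0.16 (SE, adjusted p = 0.0429 in edgeR).

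*IAA26* (AT3G16500, chr3:5612203-5614803, minus strand), also named for its binding to phytochrome, was at 17.8, 19.6 and 18.8 CPM in Col *FRI*, 21.4, 21.3 and 21.9 CPM in 35S::*FCA* and 22.6, 23.6 and 26.9 CPM in Col-0. Here the genotypes were ordered without overlap, with Col *FRI* lowest and Col-0 highest. The log2 fold change was -0.38 ± 0.08 (SE, adjusted p = 0.0189 in edgeR).

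*IAA9* was at 138, 137 and 138 CPM in Col *FRI*, 154, 169 and 166 CPM in 35S::*FCA* and 172, 164 and 162 CPM in Col-0. Col *FRI* was below every library of the other genotypes, and its 3 values were almost equal. The change was small, with a log2 fold change of -0.27 ± 0.07 (SE, adjusted p = 0.0269 in edgeR).

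*IAA8*, its abundant relative, had 449, 433 and 436 CPM in Col *FRI*, 418, 466 and 443 CPM in 35S::*FCA* and 474, 509 and 476 CPM in Col-0. All Col *FRI* libraries were below all Col-0 libraries here as well, but the log2 fold change of -0.15 ± 0.08 (SE, adjusted p = 0.228 in edgeR) did not pass. Other members among the 5 most abundant of each family that passed in no comparison had log2 fold changes in Col *FRI* against Col-0 of -0.85 ± 0.27 (SE, adjusted p = 0.0653 in edgeR) for *IAA30*, 0.31 ± 0.09 (SE, adjusted p = 0.0510 in edgeR) for *ARF8*, -0.11 ± 0.08 (SE, adjusted p = 0.378 in edgeR) for *IAA13*, -0.10 ± 0.06 (SE, adjusted p = 0.315 in edgeR) for *ARF1*, -0.01 ± 0.06 (SE, adjusted p = 0.933 in edgeR) for *ARF2*, 0.16 ± 0.13 (SE, adjusted p = 0.471 in edgeR) for *ARF3* and 0.07 ± 0.12 (SE, adjusted p = 0.725 in edgeR) for *ARF18*. *IAA18*, a regulator of embryo patterning, was at 16.7, 18.6 and 19.9 CPM in Col *FRI*, 18.4, 20.6 and 22.5 CPM in 35S::*FCA* and 20.9, 24.2 and 26.4 CPM in Col-0. Its Col *FRI* libraries were all below those of Col-0, and the log2 fold change was -0.37 ± 0.11 (SE, adjusted p = 0.0559 in edgeR).

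*ARF9* (AT4G23980, chr4:12451143-12455369, plus strand), a class B ARF that acts in the suspensor, was at 20.9, 19.8 and 20.5 CPM in Col *FRI*, 17.7, 18.7 and 18.2 CPM in 35S::*FCA* and 14.999, 16.6 and 16.7 CPM in Col-0. Col *FRI* was highest and Col-0 lowest, with 35S::*FCA* in between and no overlap. The log2 fold change was 0.34 ± 0.08 (SE, adjusted p = 0.0181 in edgeR). Other ARFs that missed the threshold had similar sizes, with 0.38 for *ARF7* (edgeR adjusted p = 0.112), 0.26 for *ARF4* (edgeR adjusted p = 0.116) and 0.34 for *ARF11* (edgeR adjusted p = 0.327). By class, all 4 class A members, 5 of 7 class B members and 2 of 3 class C members had a positive log2 fold change.

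**Figure D2:**
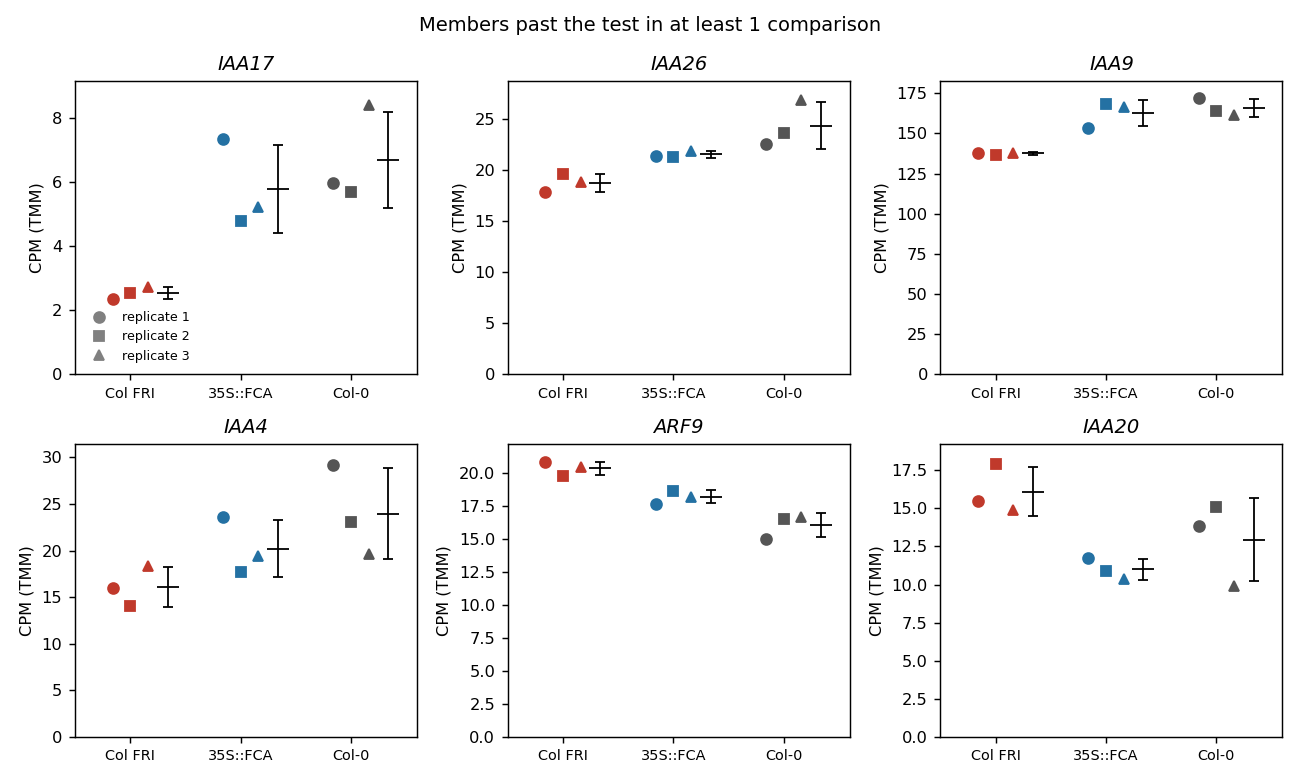
TMM-scaled CPM of the 6 members past the test in at least 1 comparison, with 1 symbol per library and, beside them, the mean ± SD (n = 3). *IAA17*, *IAA26*, *IAA9* and *IAA4* are lower and *ARF9* is higher in all 3 Col *FRI* libraries than in any Col-0 library, and *IAA20* is higher in Col *FRI* than in 35S::*FCA*.

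These calls depended on which libraries were used. When the 3 libraries of Col *FRI* were treated as 1 summed sample, a setting added once the values had been seen, 0 of the 5 calls remained. Leaving out Col *FRI* replicate 1, 2 or 3 gave 2, 1 and 1 calls. Without Col-0 replicate 3 there were 11 calls, and without 35S::*FCA* replicate 1 there were 8. The 2 calls without Col *FRI* replicate 1 were *IAA17* and *IAA3*, which was not 1 of the 5. *IAA3* was also counted without any 1 library of Col-0 or 35S::*FCA*. The filter had kept it out of the main fit. It entered these fits only through Col *FRI*, where it was high, so its calls are no evidence for a rise. Calls over all loci, 2464 with all libraries, moved likewise, to 611 to 732 without a Col *FRI* library, 4139 without Col-0 replicate 3 and 2952 without 35S::*FCA* replicate 1. Without 35S::*FCA* replicate 3, 2 members were called lower in place of 4. Across 19 alternatives *IAA17* kept its call in 18, *IAA26* in 13, *ARF9* in 11, *IAA9* in 9 and *IAA4* in 8, and none of these 5 changed direction. *IAA17* was called whichever library was left out. Without Col-0 replicate 1 the calls of *IAA4*, *IAA9* and *ARF9* were lost, without Col-0 replicate 2 that of *IAA4*, and without 35S::*FCA* replicate 3 those of *IAA4* and *IAA9*. Among markers of other tissues, seed coat sums were 7.73 to 8.22 TPM in Col *FRI* and 8.47 to 10.9 TPM in Col-0 (0 of 4 tested markers called, with 1 at an unadjusted p under 0.05). Storage protein sums were 1.33 to 1.79 TPM in Col *FRI* and 1.50 to 12.9 TPM in Col-0. Of 3 tested storage protein markers 2, *CRA1* and *SESA1*, were called lower, next to 7.22% of all loci. Both had Col *FRI* counts under the filter's minimum of 10, with 3, 1 and 2 for *CRA1* and 8, 5 and 7 for *SESA1*. A call of Col *FRI* could then hardly be other than lower. The third, *SESA3*, was not called and had a positive log2 fold change of 0.93. The part of the seed coat and storage protein markers in the result was not tested.

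In 35S::*FCA* against Col-0, which shares the Col-0 libraries with the comparison above, 0 of the 32 members passed in edgeR, with 7 (21.9%) at an unadjusted p under 0.05, next to 18.8% of all loci, 1 called by DESeq2 and 0 by limma. Few loci were called at all, 0.490% higher and 1.03% lower. By the stricter rule it was 0 members and 0.00538% of loci. The median log2 fold change was -0.19 over Aux/IAA members, of which 15 were negative, 0.14 over ARF members, of which 9 were positive, and -0.01 over all loci. 1 of 3 tested storage protein markers, *CRA1*, was called lower here, with 1, 0 and 3 estimated counts in 35S::*FCA* and 16, 15 and 11 in Col-0. It passed the filter on low counts only through Col-0. Storage protein sums were between 1.05 and 1.35 TPM in 35S::*FCA* against 1.50 to 12.9 TPM in Col-0, where most of the sum was *SESA1*, which was not called (edgeR adjusted p = 0.0895). The part of these markers in the values was not tested.

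*ARF8* (AT5G37020, chr5:14629453-14634454, plus strand) came closest. It was at 36.4, 36.5 and 36.7 CPM in Col *FRI*, 41.0, 39.7 and 37.6 CPM in 35S::*FCA* and 30.7, 25.2 and 32.5 CPM in Col-0, and all libraries of 35S::*FCA* and of Col *FRI* were above all of Col-0. Its log2 fold change in 35S::*FCA* against Col-0 was 0.42 ± 0.09 (SE, adjusted p = 0.0557 in edgeR), and in DESeq2 it was called. In Col *FRI* against Col-0 it was 0.31 ± 0.09 (SE, adjusted p = 0.0510 in edgeR).

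*IAA10*, which acts with *ARF9* in the suspensor, had the largest log2 fold change in 35S::*FCA* against Col-0, 1.14 ± 0.42 (SE, adjusted p = 0.182 in edgeR). It rested on 16, 13 and 17 estimated counts in Col *FRI*, 32, 42 and 57 estimated counts in 35S::*FCA* and 8, 30 and 18 estimated counts in Col-0. All 3 35S::*FCA* libraries were above Col-0 once scaled for depth, but the Col-0 libraries themselves ranged widely. *ARF3* had a log2 fold change of 0.43 ± 0.13 (SE, adjusted p = 0.126 in edgeR), with 41.4, 43.4 and 41.8 CPM in Col *FRI*, 60.2, 43.1 and 50.1 CPM in 35S::*FCA* and 35.9, 33.0 and 44.8 CPM in Col-0. For *ARF3*, 35S::*FCA* replicate 2 lay below Col-0 replicate 3, so that the groups overlapped. Without Col-0 replicate 3 the number of members called in this comparison was 6, with *ARF3* and *ARF8* higher and *IAA2*, *IAA19*, *IAA20* and *IAA30* lower, and the loci called numbered 1608.

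**Figure D3:**
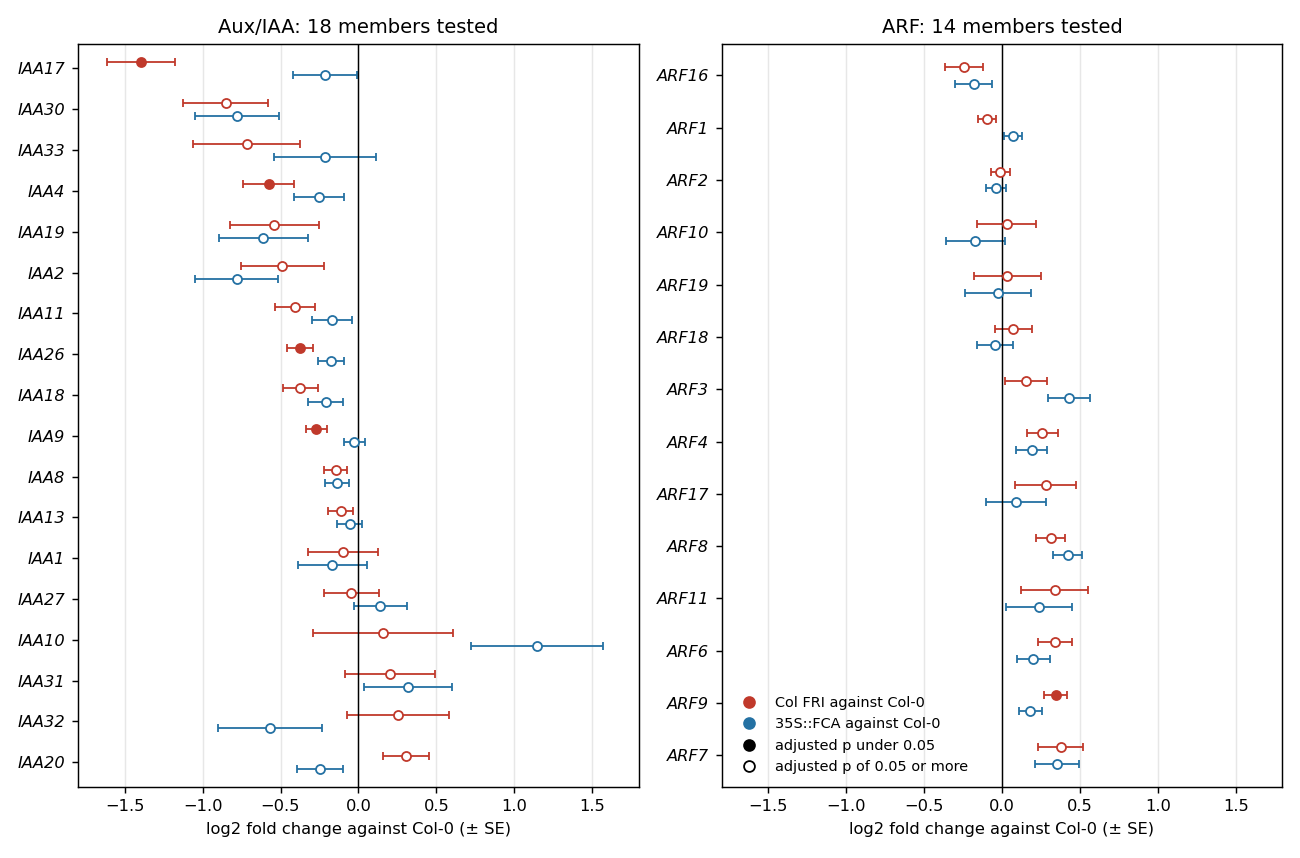
Log2 fold changes with standard errors from edgeR for the 32 tested members, in Col *FRI* and in 35S::*FCA*, each against the same Col-0 libraries, so that the points of a gene are not independent. Filled points had an adjusted p under 0.05, which were *IAA17*, *IAA4*, *IAA26*, *IAA9* and *ARF9* in Col *FRI* and none in 35S::*FCA*.

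Between Col *FRI* and 35S::*FCA*, 2 members were lower and 1 was higher in Col *FRI*, or 6.25% and 3.12% of those tested, where 5.92% of all loci were called lower and 7.00% higher. By the stricter rule it was 0 members and 0.560% of loci. At an unadjusted p under 0.05 there were 7 members (21.9%), next to 29.7% of all loci. *IAA17* was lower, with a log2 fold change of -1.18 ± 0.22 (SE, adjusted p = 0.00784 in edgeR), and *IAA9* was lower, with -0.24 ± 0.07 (SE, adjusted p = 0.0377 in edgeR). *IAA20* (AT2G46990, chr2:19307714-19309071, plus strand), which lacks degron codons, was higher in Col *FRI*. It was at 15.5, 17.9 and 14.9 CPM in Col *FRI*, 11.7, 10.9 and 10.4 CPM in 35S::*FCA* and 13.8, 15.1 and 9.89 CPM in Col-0, so that every Col *FRI* library was above every 35S::*FCA* library while Col-0 overlapped with Col *FRI*. Its log2 fold change was 0.55 ± 0.15 (SE, adjusted p = 0.0371 in edgeR). Only the *IAA17* call remained when Col *FRI* replicate 1, 2 or 3 or 35S::*FCA* replicate 2 or 3 was left out (1 call each), 5 members were called without Col-0 replicate 1 or Col-0 replicate 3, and 0 were called with the Col *FRI* libraries summed. *IAA3*, which the filter had kept out of the main fit, was 1 of the 5 members in both fits without a Col-0 library. Of 7 embryo markers, *AGO10* was higher and *PDF1* lower in Col *FRI*, and their part in the calls of this comparison was not tested. The median over Aux/IAA members was -0.14, with 13 of 18 negative. The median over ARF members was 0.06, but -0.07 in limma on log2(TPM + 0.1), where the median of all loci was -0.12.

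3 members with low values in Col-0 replicate 3 varied widely within Col-0, and they are described here for that pattern. Others varied too and were highest in replicate 3. In Col-0 replicates 1, 2 and 3, *IAA31* was at 2.43, 1.84 and 4.10 CPM and *IAA33* at 2.62, 1.60 and 4.04 CPM. *IAA19* (AT3G15540, chr3:5264001-5265695, plus strand), known as MSG2 for its role in tropic growth, was at 10.1, 9.24 and 10.6 CPM in Col *FRI*, 11.8, 7.71 and 9.12 CPM in 35S::*FCA* and 13.2, 21.7 and 8.37 CPM in Col-0. *IAA2* (AT3G23030, chr3:8180646-8182095, minus strand), a classic early auxin response gene, was at 7.97, 7.66 and 7.63 CPM in Col *FRI*, 7.58, 6.31 and 5.25 CPM in 35S::*FCA* and 11.9, 14.5 and 6.01 CPM in Col-0. *IAA30* was at 25.3, 25.5 and 22.7 CPM in Col *FRI*, 34.4, 19.8 and 23.6 CPM in 35S::*FCA* and 45.6, 60.4 and 26.3 CPM in Col-0. All 3 were high in Col-0 replicates 1 and 2 and low in Col-0 replicate 3, where they were at the level of the other genotypes. With all libraries none passed in edgeR, where log2 fold changes in Col *FRI* against Col-0 were -0.54 for *IAA19* (edgeR adjusted p = 0.241), -0.49 for *IAA2* (edgeR adjusted p = 0.248) and -0.85 for *IAA30* (edgeR adjusted p = 0.0653). *IAA30* was called in this comparison by DESeq2 (adjusted p = 0.0160), by edgeR without the filter on low counts (adjusted p = 0.0252) and by edgeR without 35S::*FCA* replicate 1 (adjusted p = 0.0439).

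Without Col-0 replicate 3 all of them were called lower in both genotypes, but since they were picked for their low values in that library, those calls are no evidence for a change. Log2 fold changes in Col *FRI* against Col-0 were then -0.81 for *IAA19*, -0.78 for *IAA2* and -1.12 for *IAA30*, and in 35S::*FCA* against Col-0 they were -0.88 for *IAA19*, -1.06 for *IAA2* and -1.04 for *IAA30*. The organelle share of TPM in replicates 1, 2 and 3 was 20.8, 19.5 and 19.7 in Col *FRI*, 17.4, 15.8 and 16.2 in 35S::*FCA* and 11.9, 13.6 and 22.8 in Col-0, in percent. Storage protein markers summed to 1.79, 1.42 and 1.33 in Col *FRI*, 1.35, 1.05 and 1.16 in 35S::*FCA* and 5.003, 12.9 and 1.50 in Col-0, in TPM. That sum was also high in Col-0 replicates 1 and 2, mostly from the 1 gene *SESA1*, at 4.14, 11.8 and 0.872 TPM in Col-0. The part of the organelle share and of these markers in the difference was not tested.

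ARFs recognize the auxin response element TGTCTC and, with higher affinity, TGTCGG. In a window of 250 bases before to 50 after the annotated start, on either strand, TGTCTC was found in 12 of 28 Aux/IAA genes (42.9%) and in 1 of 14 ARF genes (7.14%), next to 14.2% of 27443 protein-coding genes. TGTCGG was found in 5 of 28 Aux/IAA genes (17.9%), 2 of 14 ARF genes (14.3%) and 5.12% of all. From 1000 bases before to 50 after the start, TGTCTC was in 64.3% of Aux/IAA genes, 42.9% of ARF genes and 41.9% of all, and TGTCGG in 25% of Aux/IAA genes, 35.7% of ARF genes and 15.4% of all. The 250 bases before the start are shown for *IAA19*, the member with the most copies of TGTCTC in the window, 3, and 1 of the genes that varied within Col-0. The element is in capitals. *IAA2* and *IAA17* had neither element in the 300-base window.
*IAA19*, chr3:5263751-5264000, plus strand: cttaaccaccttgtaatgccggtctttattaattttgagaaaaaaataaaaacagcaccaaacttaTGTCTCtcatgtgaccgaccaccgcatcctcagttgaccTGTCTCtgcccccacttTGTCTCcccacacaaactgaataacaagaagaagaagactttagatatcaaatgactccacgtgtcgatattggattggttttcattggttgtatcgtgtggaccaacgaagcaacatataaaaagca

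**Figure D4:**
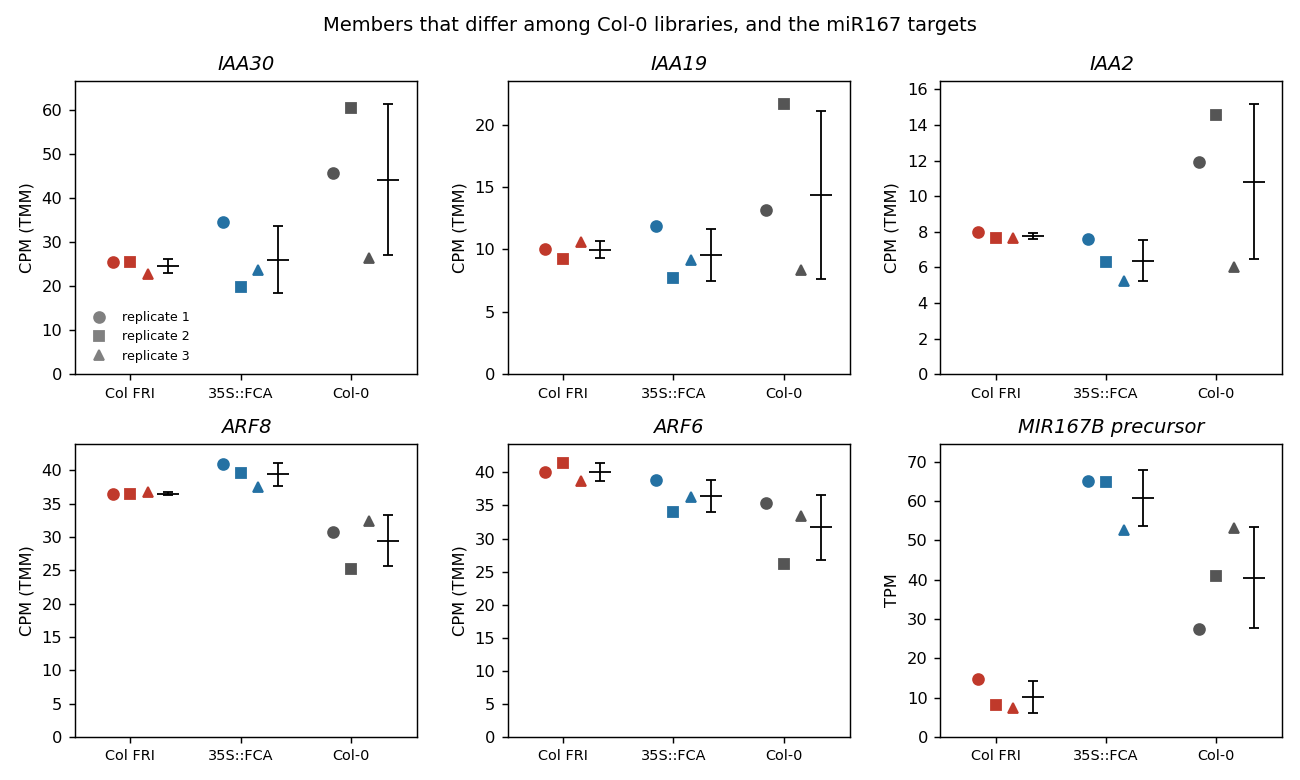
TMM-scaled CPM of *IAA30*, *IAA19* and *IAA2* (top) and of the miR167 targets *ARF8* and *ARF6* with the TPM of the *MIR167B* precursor (bottom), with 1 symbol per library and the mean ± SD (n = 3). Col-0 replicate 3 (triangle) sits with the other genotypes in the top row, and the precursor is lowest in all 3 Col *FRI* libraries.

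6 Aux/IAA genes lie in pairs of neighbours that point away from each other with 1 gene between them, at distances of 6388 bases (*IAA3* and *IAA17*, chromosome 1), 10732 bases (*IAA14* and *IAA1*, chromosome 4) and 12510 bases (*IAA2* and *IAA7*, chromosome 3). Within each pair 1 gene was expressed and the other was near the floor. Beside *IAA17*, *IAA3* (AT1G04240), which is known as SHY2 and limits the root meristem, had 9, 17 and 14 estimated counts in Col *FRI*, 6, 2 and 4 estimated counts in 35S::*FCA* and 3, 1 and 1 estimated counts in Col-0. It was thus highest in Col *FRI*, in the libraries where its neighbour *IAA17* was lowest. It did not pass the filter on low counts, and without the filter edgeR gave a log2 fold change of 3.42 (adjusted p = 0.0125) in Col *FRI* against Col-0.

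Beside *IAA1*, which had 59, 33 and 41 estimated counts in Col *FRI*, 33, 81 and 70 estimated counts in 35S::*FCA* and 74, 65 and 56 estimated counts in Col-0, *IAA14* (AT4G14550), the lateral root regulator SOLITARY-ROOT, had 0, 0 and 0 estimated counts in Col *FRI*, 8, 5 and 9 estimated counts in 35S::*FCA* and 3, 10 and 4 estimated counts in Col-0. *IAA14* was at 0 in all Col *FRI* libraries. A floor of 3 counts over the Col *FRI* libraries, relative to total counts, lies 4.16-fold below the 17 counts of the Col-0 libraries together. It lies 5.47-fold below the 22 counts of 35S::*FCA*. These folds leave out the counting error of the 17 and 22 counts. *IAA29* (AT4G32280), an auxin and shade response gene, was also at 0 in Col *FRI*, with 0, 0 and 0 estimated counts in Col *FRI*, 9, 2 and 7 estimated counts in 35S::*FCA* and 3, 21 and 7 estimated counts in Col-0. The same floor lies 7.58-fold below its counts in Col-0, where 21 of 31 counts came from replicate 2, and 4.47-fold below those in 35S::*FCA*. Without the filter, edgeR's adjusted p in Col *FRI* against Col-0 was 0.0442 for *IAA14* and 0.0298 for *IAA29*. *IAA7*, the neighbour of *IAA2*, was at 0 in Col *FRI* as well and had at most 2 counts in any library.

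Among the small RNA regulators of ARFs, 4 of 11 loci could be tested. The precursor *MIR167B* (AT3G63375) fell in Col *FRI*. It was at 14.7, 8.13 and 7.45 TPM in Col *FRI*, 65.1, 64.9 and 52.6 TPM in 35S::*FCA* and 27.6, 41.0 and 53.1 TPM in Col-0, from 8, 4 and 4 estimated counts in Col *FRI*, 40, 46 and 43 estimated counts in 35S::*FCA* and 22, 32 and 35 estimated counts in Col-0, with every Col *FRI* library below all others and 35S::*FCA* overlapping with Col-0. The log2 fold change was -2.05 ± 0.43 (SE, adjusted p = 0.0156 in edgeR) against Col-0 and -2.53 ± 0.42 (SE, adjusted p = 0.00461 in edgeR) against 35S::*FCA*. Its Col *FRI* counts were under the filter's minimum of 10, so it was tested only through the other genotypes, where it was high. A call of Col *FRI* could then hardly be other than lower, and these tests are no separate evidence for a fall. Against Col-0 the call was lost without Col *FRI* replicate 2 (adjusted p = 0.0725 in edgeR) or replicate 3 (adjusted p = 0.0756 in edgeR), and in both comparisons with the Col *FRI* libraries summed. Libraries of this kind measure the precursor and not the mature miRNA.

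The targets of miR167 are the class A genes *ARF6* and *ARF8*. *ARF6* (AT1G30330, chr1:10685822-10690988, minus strand), which acts with *ARF8* in flower maturation, was at 40.1, 41.5 and 38.8 CPM in Col *FRI*, 38.9, 34.03 and 36.3 CPM in 35S::*FCA* and 35.4, 26.1 and 33.5 CPM in Col-0. All Col *FRI* libraries were above those of Col-0, and 35S::*FCA* overlapped with both. The log2 fold change in Col *FRI* against Col-0 was 0.34 ± 0.11 (SE, adjusted p = 0.0636 in edgeR), which did not pass, just as for *ARF8*. The other precursors, of miR160 and of miR167a, c and d, had at most 12 counts in any library and were not tested.

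*ARF2*, *ARF3* and *ARF4* are targets of tasiR-ARF, which is cut from *TAS3* transcripts with the help of AGO7. *TAS3C* (AT5G57735) was at 33.9, 36.6 and 42.1 TPM in Col *FRI*, 103, 65.4 and 80.5 TPM in 35S::*FCA* and 56.2, 55.1 and 67.9 TPM in Col-0. Every Col *FRI* library was below all others, and the log2 fold change was -0.65 ± 0.25 (SE, adjusted p = 0.114 in edgeR) against Col-0 and -1.06 ± 0.25 (SE, adjusted p = 0.0221 in edgeR) against 35S::*FCA*. *TAS3A*, with log2 fold changes of -0.78 ± 0.32 (SE, adjusted p = 0.131 in edgeR) and -0.80 ± 0.32 (SE, adjusted p = 0.124 in edgeR) in the same comparisons, did not pass, nor did *AGO7*. Of the targets, *ARF2* had a log2 fold change of -0.01, *ARF3* of 0.16 and *ARF4* of 0.26 in Col *FRI* against Col-0, none past the test. The miR160 targets had 0.03 for *ARF10* and -0.24 for *ARF16*, which shape the root cap, and 0.28 for *ARF17*, also without a call.

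Upstream and downstream of the families, few genes passed. Of all loci, 6.04% were called higher and 7.22% lower in Col *FRI* against Col-0, 0.490% and 1.03% in 35S::*FCA* against Col-0, and 7.00% and 5.92% in Col *FRI* against 35S::*FCA*. At an unadjusted p under 0.05 in edgeR the shares were 30.0%, 18.8% and 29.7%. With 3 to 7 genes tested per list, the counts below cannot be told apart from these shares. Of 6 auxin receptors 0 passed in Col *FRI* against Col-0 and 0 in 35S::*FCA* against Col-0 in edgeR, with 1 at an unadjusted p under 0.05 in each. *AFB1* (AT4G03190), the receptor of rapid cytoplasmic auxin responses, was at 2.52, 2.09 and 2.17 TPM in Col *FRI*, 1.07, 1.16 and 1.08 TPM in 35S::*FCA* and 1.48, 1.51 and 1.81 TPM in Col-0. It was higher in Col *FRI* than in 35S::*FCA* without overlap, with a log2 fold change of 1.16 ± 0.20 (SE, adjusted p = 0.00464 in edgeR). Of the 5 TOPLESS corepressors and the 7 genes of the SCF complex and of RUB conjugation, which activates it, 0 passed in any of the 3 comparisons, with 1 and 1 at an unadjusted p under 0.05 in Col *FRI* against Col-0, 0 and 1 in 35S::*FCA* against Col-0 and 1 and 1 in Col *FRI* against 35S::*FCA*. 9 LBD and SAUR genes downstream of ARFs gave 3 that could be tested, of which 0 passed and 1, 0 and 1 had an unadjusted p under 0.05 in the same order. For *LBD16*, a target of ARF7 and ARF19 in lateral root initiation, the log2 fold change was -1.01 ± 0.32 (SE, adjusted p = 0.0613 in edgeR) in Col *FRI* against Col-0, from 32, 24 and 28 estimated counts in Col *FRI*, 61, 77 and 92 estimated counts in 35S::*FCA* and 75, 54 and 95 estimated counts in Col-0.

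The genes left out of the member list were abundant. *ARF5*, the embryo root regulator MONOPTEROS, was at 26.5, 27.1 and 26.7 TPM in Col *FRI*, 30.4, 38.9 and 35.9 TPM in 35S::*FCA* and 30.4, 25.3 and 22.5 TPM in Col-0, above the mean of every ARF member in Col-0. The lowest 35S::*FCA* library and the highest Col-0 library were nearly equal, and its log2 fold change was 0.35 ± 0.07 (SE, adjusted p = 0.0408 in edgeR) in 35S::*FCA* against Col-0 and -0.26 ± 0.07 (SE, adjusted p = 0.0369 in edgeR) in Col *FRI* against 35S::*FCA*. *IAA12*, its repressor BODENLOS, was at 30.4, 29.5 and 27.7 TPM in Col *FRI*, 24.3, 33.0 and 31.7 TPM in 35S::*FCA* and 34.2, 33.9 and 25.7 TPM in Col-0 and did not pass in any comparison. The 8 paralogs of ARFs on chromosome 1 (*ARF12* to *ARF15* and *ARF20* to *ARF23*) had at most 7 counts in any library, and 0 of them could be tested.

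The files list 13 members with more than 1 transcript model, of which 10 could be tested for a change in the use of their models. 0 of the 10 passed in edgeR's test of Col *FRI* against Col-0, where 1.85% of 3679 genes were called, 0 in 35S::*FCA* against Col-0, where 0.435% were called, and 0 in Col *FRI* against 35S::*FCA*, where 2.15% were called. At an unadjusted p under 0.05 there were 0, 1 (*IAA13*) and 2 (*IAA13* and *ARF7*). A single model made up 92.2 to 95.2% of *IAA8* and 95.0 to 97.7% of *IAA9* in every library. *ARF9* was spread over 2 models, the first of which made up 42.9 to 71.8% in Col *FRI*, 40.3 to 72.5% in 35S::*FCA*, against 67.3 to 75.3% in Col-0. Shares of models estimated from short reads of the same gene are less certain than their sum.

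Summed over the family, the 28 Aux/IAA members were at 422, 415 and 418 in Col *FRI*, 403, 539 and 492 in 35S::*FCA* and 556, 578 and 415 in Col-0, in TPM. The 14 ARF members were at 86.1, 88.9 and 88.2 in Col *FRI*, 88.0, 108 and 101 in 35S::*FCA* and 93.2, 84.5 and 76.7 in Col-0, in TPM. Both sums overlapped between Col *FRI* and Col-0. TPM depend on the organelle share of a library, and with TPM over nuclear loci without ribosomal RNA neither sum overlapped, at 678 to 720 for Aux/IAA in Col *FRI*, against 775 to 845 in Col-0, and at 145.28 to 147.04 for ARF in Col *FRI*, against 123 to 145.02 in Col-0. In the ratio of the sums the scale cancels. It was 4.90, 4.67 and 4.74 in Col *FRI*, 4.58, 5.01 and 4.85 in 35S::*FCA* and 5.97, 6.84 and 5.41 in Col-0. Every Col-0 library had more Aux/IAA for its ARF transcripts than any library of the other genotypes, which overlapped with each other. Without *IAA8* and *IAA9* the ratio was 1.47 to 1.50 in Col *FRI*, 1.43 to 1.57 in 35S::*FCA*, against 1.69 to 2.53 in Col-0, again with Col-0 above the others. Class A ARFs took 21.1 to 21.6% of ARF TPM in Col *FRI*, 20.2 to 20.9% in 35S::*FCA*, against 17.0 to 18.9% in Col-0, with no overlap between any of the genotypes. *ARF5*, a class A gene that is no member, was in every library above the summed TPM of the class A members. The shares of class A and the order of the genotypes in them thus hold only without *ARF5*. These ratios are descriptions of the members as chosen.

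**Figure D5:**
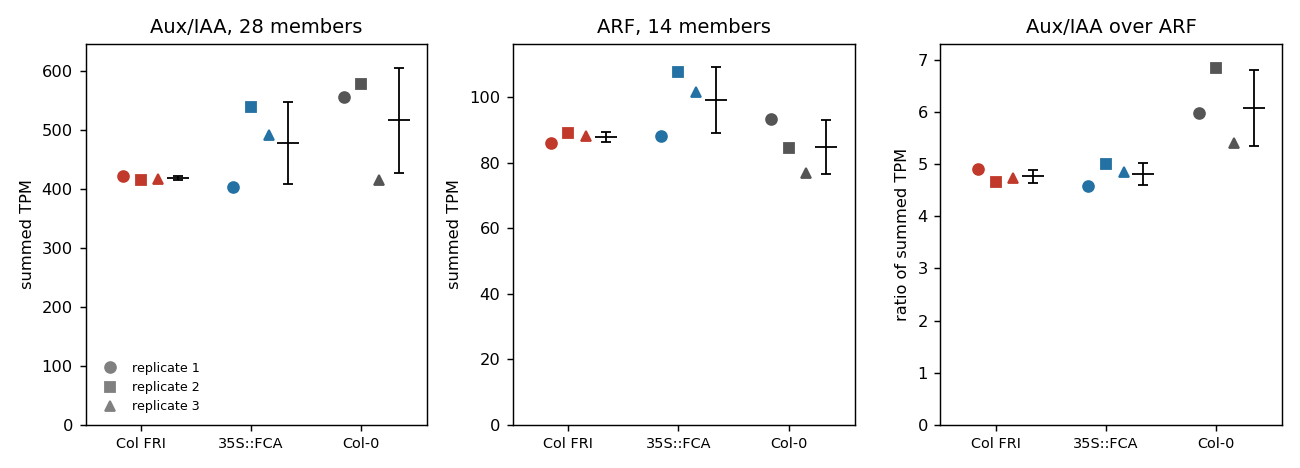
Summed TPM of the 28 Aux/IAA members and of the 14 ARF members, and the ratio of the sums, with 1 symbol per library and the mean ± SD (n = 3). The ratio is 4.67 to 4.90 in Col *FRI*, 4.58 to 5.01 in 35S::*FCA*, against 5.41 to 6.84 in Col-0.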

How the data were processed

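The deposited tables come from kallisto, run by the authors on transcript models (TAIR10 per the submitters' processing notes, kallisto version not given in the sources used here). For each transcript and library they hold estimated counts, which are not normalized, and TPM, scaled by the authors over all transcripts of the index, organelle and ribosomal RNA included. Both were summed per locus, and the members and gene lists were chosen with earlier results of these data known. Counts were rounded to whole numbers. The tests used the quasi-likelihood fit of edgeR 4.0.16 under R 4.3.3, after TMM scaling and filterByExpr (genotype as the factor over 9 libraries, Benjamini-Hochberg adjustment over 18585 loci). Isoform usage was tested with diffSpliceDGE. The study names DESeq2 for its comparison of genes. Here DESeq2 1.42.0 and limma 3.58.1 (log2 of TPM plus 0.1 or 1) were alternatives. Further ones were RLE size factors, no filter, only the 2 genotypes compared, no organelle or ribosomal RNA loci, a replicate block and each library left out. TPM rescaled to the total counts of each library, named length-scaled counts below, were also used in place of the counts. Functions were tested on simulated counts. Named in full are the members called in any comparison and the 5 with the highest mean TPM in Col-0 of each family, then neighbouring pairs and small RNA targets. *IAA2*, *IAA19*, *IAA29*, *IAA30*, *ARF8*, *IAA10* and *ARF3* were also described for patterns seen in their values. Positions, promoters, degron codons and miRNA sites came from RefSeq's TAIR10.1 genome with Python 3.11.15 and Biopython 1.88. Depth was 15166826 to 25847613 estimated counts per library. 3 counts were the floor, and statements on counts cover counting error only. Folds against the floor leave out the counting error of the other genotype. Genes of a family can share reads, and kallisto divides such reads among them by estimate.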

Additional observations from a re-analysis of the deposited data

How the results depend on the processing

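Counts of members called changed with the setting. The 24 fold changes recomputed under each alternative kept their direction, and members near 0 such as *ARF2* and *ARF10* were not among them. In Col *FRI* against Col-0 (5 called, 1 higher and 4 lower), DESeq2 called 9 (2 higher, 7 lower), limma with either pseudocount 1 (0 higher, 1 lower), edgeR without a filter on low counts 8 (2 higher), length-scaled counts 3 (0 higher), RLE size factors 2 higher, the table without organelle and ribosomal RNA loci 2 higher, and the Col *FRI* libraries summed to 1 sample, which was chosen after seeing the data, 0 (0 higher, 0 lower). Leaving out each library gave 1 to 11 called, 0 to 4 higher and 1 to 7 lower. These counts include *IAA3* without Col *FRI* replicate 1 or any 1 library of Col-0 or 35S::*FCA*. *IAA3*, *IAA14* and *IAA29*, all kept out of the main fit by the filter, are in the counts of DESeq2 and of edgeR without the filter. In 35S::*FCA* against Col-0 (0 called), DESeq2, no filter on low counts and the table without organelle and ribosomal RNA loci each called 1 (1 higher), and leaving out each library gave 0 to 6 called, 0 to 2 higher and 0 to 4 lower, with 6 only without Col-0 replicate 3. In Col *FRI* against 35S::*FCA* (3 called, 1 higher and 2 lower), DESeq2 called 5 (4 lower), limma with either pseudocount 1 (0 higher, 1 lower), the fit of only the 2 genotypes compared 5 (4 lower), and the summed Col *FRI* libraries 0 (0 higher, 0 lower). Leaving out each library gave 1 to 5 called, 0 to 2 higher and 1 to 3 lower. *IAA3* is among the higher here without any 1 Col-0 library or without 35S::*FCA* replicate 1. Over all loci, calls ran from 20 to 4139 in Col *FRI* against Col-0, 8 to 1608 in 35S::*FCA* against Col-0 and 76 to 4478 in Col *FRI* against 35S::*FCA*. The cause of these differences was not tested.

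The 3 genotypes share replicate numbers. Of the correlations between same-numbered libraries, 2 of 9 were over 0.1 (from -0.12 to 0.26), next to 2 of 18 between different numbers. Both of the 2 were between Col-0 and 35S::*FCA*, at 0.20 for replicate 1 and 0.26 for replicate 2, with -0.12 for replicate 3. Col-0 replicate 2 with 35S::*FCA* replicate 3 reached 0.27. Same-numbered libraries did not deviate together throughout, and the numbers were not taken as pairs. With the replicate number as a block, 5 members were called in Col *FRI* against Col-0 (1 higher, 4 lower), with *IAA18* called in place of *IAA9*, 0 in 35S::*FCA* against Col-0, and 2 in Col *FRI* against 35S::*FCA* (1 higher, 1 lower), where *IAA9* was not called either. Isoform usage gave 0 calls with and without the block.

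Summed TPM of Col *FRI* over 35S::*FCA* was 0.875 for Aux/IAA and 0.886 for ARF, but 1.00 and 1.01 with TPM over nuclear loci without ribosomal RNA. Leaving out each library, it ran from 0.811 to 0.935 for Aux/IAA and 0.839 to 0.926 for ARF. Against Col-0, Aux/IAA sums were 0.737 to 0.861 times as high in Col *FRI* and 0.842 to 0.998 in 35S::*FCA*, and ARF sums 0.988 to 1.09 and 1.11 to 1.23. Depth limits the 10 Aux/IAA members with at most 21 counts, which did not pass the filter.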
